A study of Mus musculus with 6 samples.

Results

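Translation initiation factor eIF2, its exchange factor eIF2B and the eIF2 kinases PERK and GCN2 were followed through 10 genes: the subunit genes Eif2s1, Eif2s2 and Eif2s3x, the subunit genes Eif2b1 to Eif2b5, and the kinase genes Eif2ak3 and Eif2ak4. All 10 symbols were among the 23284 in the count tables, and all 10 had enough counts to be tested. The set was chosen by the counts of Eif2s3x, which were higher in the Paupar KD libraries; its partners were added by function. The values of Eif2s3x are therefore a description, without a test, and the question put to the counts is whether its partners moved as well. RNA was from MIN6, a line grown from a mouse insulinoma that makes insulin and stands in for beta cells. In the Paupar KD group (3 libraries) the cells had been given an antisense oligonucleotide (ASO) against Paupar, a long noncoding RNA made beside the gene of the transcription factor PAX6. In the Control KD group (3 libraries) they had been given a control ASO. All 6 libraries are from this 1 cell line, and the labels give no dose, time or separate culture. The counts are of bulk RNA, so fewer cells of a kind and less RNA per cell cannot be told apart.

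eIF2 carries the initiator methionyl-tRNA to the small ribosomal subunit. Its gamma subunit, the product of Eif2s3x, binds the GTP and the tRNA; the alpha subunit carries the serine that stress kinases phosphorylate; the beta subunit helps to hold the tRNA and contacts eIF5 and eIF2B. The subunits assemble in equal numbers. After each round eIF2 is left with GDP, and eIF2B exchanges it for GTP. Phosphorylated eIF2 blocks eIF2B, which lowers general translation and favours messages such as that of ATF4. Beta cells make large amounts of proinsulin and depend on PERK, the kinase of the endoplasmic reticulum, while GCN2 responds to uncharged tRNA.

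Levels are given in CPM, the usual scaling of counts by library size, here with TMM factors applied to the totals. Total counts were 16973622 to 23434166 in the Paupar KD libraries and 22463557 to 28693863 in the Control KD libraries. The biological coefficient of variation was 18.8% among Paupar KD and 4.95% among Control KD libraries, and Paupar KD replicate 1 stood farthest from the others, with correlations (Pearson, log2 CPM, over genes) of 0.973 to 0.984 with every other library, against 0.988 to 0.996 for the pairs without it. Paupar itself was not analysed here, so the knockdown was not measured directly. Pax6, its neighbour, averaged 398 ± 16.7 CPM in Paupar KD and 585 ± 36.4 CPM in Control KD (SD, n = 3 each; edgeR adjusted p = 0.0694, which was 3.13e-06 to 0.493 over the alternatives). Pax6 passed as lower with DESeq2, without the low-count filter and without Paupar KD replicate 1 or 3, at log2 fold changes of -0.57 to -0.54, against -0.56 in the fit reported. The 12 beta cell markers were all tested, with means of 289.6 to 18955 CPM. Their summed level was 46972 to 69137 CPM in Paupar KD and 42237 to 46254 CPM in Control KD. These ranges nearly touch, and the sum, which is weighted to the most abundant markers, was not tested. Ins2, the most abundant of them, was at 28450, 18601 and 18696 CPM in Paupar KD and at 16348, 17207 and 14430 CPM in Control KD, while Slc30a8 lay the other way, at 387 ± 35.9 CPM in Paupar KD and 472 ± 13.0 CPM in Control KD, and neither passed (edgeR adjusted p = 0.253 and 0.211). Of the alpha cell markers, Gcg averaged 76.4 ± 43.0 CPM in Paupar KD and 71.1 ± 4.83 CPM in Control KD, and Ttr 896 ± 127 CPM in Paupar KD and 766 ± 36.5 CPM in Control KD (SD, n = 3 each). Exocrine markers (3 of 6 at 0) summed to at most 11.0 CPM in a library, immune and endothelial markers (2 of 4 at 0) to at most 3.42 CPM, mesenchymal markers (1 of 4 at 0) to at most 1.36 CPM and the delta cell pair to at most 0.133 CPM. The part of these marker levels in the members' values was not tested.

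The sequence of Eif2s3x bears on how its counts can be read, and is therefore shown first. Eif2s3x lies on the minus strand of chromosome X (91434046 to 91458201, build mm9) and has 12 exons in its longest annotated transcript, of 3647 bases. A search of that transcript against the genome found a copy without introns on the plus strand of chromosome X, at 31680780 to 31684279. The pseudogene Gm2223 is annotated over only part of it, the 1350 bases at 31680781 to 31682130. The copy matched 3500 bases without a gap, at 99.9% identity and with 2 differences, both in the 3' UTR. The copy lacks only the first 144 bases of the transcript, 68 of them coding, and the last 3. A more distant copy on chromosome 15 (75797390 to 75798994, no annotated gene) matched 1628 aligned bases at 92.1% identity.

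The coding bases of Eif2s3x that the copy on chromosome X lacks are in exon 1, on the minus strand at chrX:91457905-91457972, and are written 5′ to 3′ in lower case throughout, since nothing there is compared.
Eif2s3x exon 1 coding: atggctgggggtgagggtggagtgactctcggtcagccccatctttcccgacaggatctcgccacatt
Exon 2, which is coding throughout, is shown as 1 short part of the copies. It lies on the minus strand at chrX:91457058-91457121, and is set beside the same 64 bases of Gm2223 (plus strand, chrX:31680781-31680844), the copy on chromosome 15 (minus strand, chr15:75798930-75798993) and the Y-linked paralog Eif2s3y (plus strand, chrY:347703-347766), all from mm9. Capitals mark bases that differ from Eif2s3x.
Eif2s3x: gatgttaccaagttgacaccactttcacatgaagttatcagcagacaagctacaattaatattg
Gm2223: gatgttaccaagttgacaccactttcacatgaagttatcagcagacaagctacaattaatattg
Chromosome 15 copy: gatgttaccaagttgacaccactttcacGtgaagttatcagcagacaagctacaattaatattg
Eif2s3y: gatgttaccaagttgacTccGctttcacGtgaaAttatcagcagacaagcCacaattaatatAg
Over these 64 bases Gm2223 had 0 differences from Eif2s3x, the chromosome 15 copy 1 and Eif2s3y 6. The chromosome 15 copy is less alike over its whole length, with 97 mismatches in 1628 aligned bases (92.1% identity).

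Over the whole Eif2s3x transcript, 3351 of 3598 stretches of 50 bases, 93.1%, also occur letter for letter elsewhere in mm9. With stretches of 100 bases the share was 90.2%. A read from such a stretch fits more than 1 place in the genome. No source used here gives the read length or the treatment of reads that fit several places, and Gm2223 was not analysed here. The eIF2 partners shared less: 39.7% of the 50-base stretches of Eif2s2, which has a copy at 99.2% identity on chromosome 8 (53281129 to 53282536, Gm9892), and 14.3% of those of Eif2s1. For the 5 eIF2B genes and both kinases the share was 0%. Among 21 regulators of eIF2 and 35 other initiation factors the medians were 0.156% and 2.14%, and the highest value was 92.8%, for Ppp1cc. For Eif2s3x, 6.86% of the 50-base stretches occur nowhere else, and the part of the shared sequence in the difference between the groups was not tested.

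**Figure D1:**
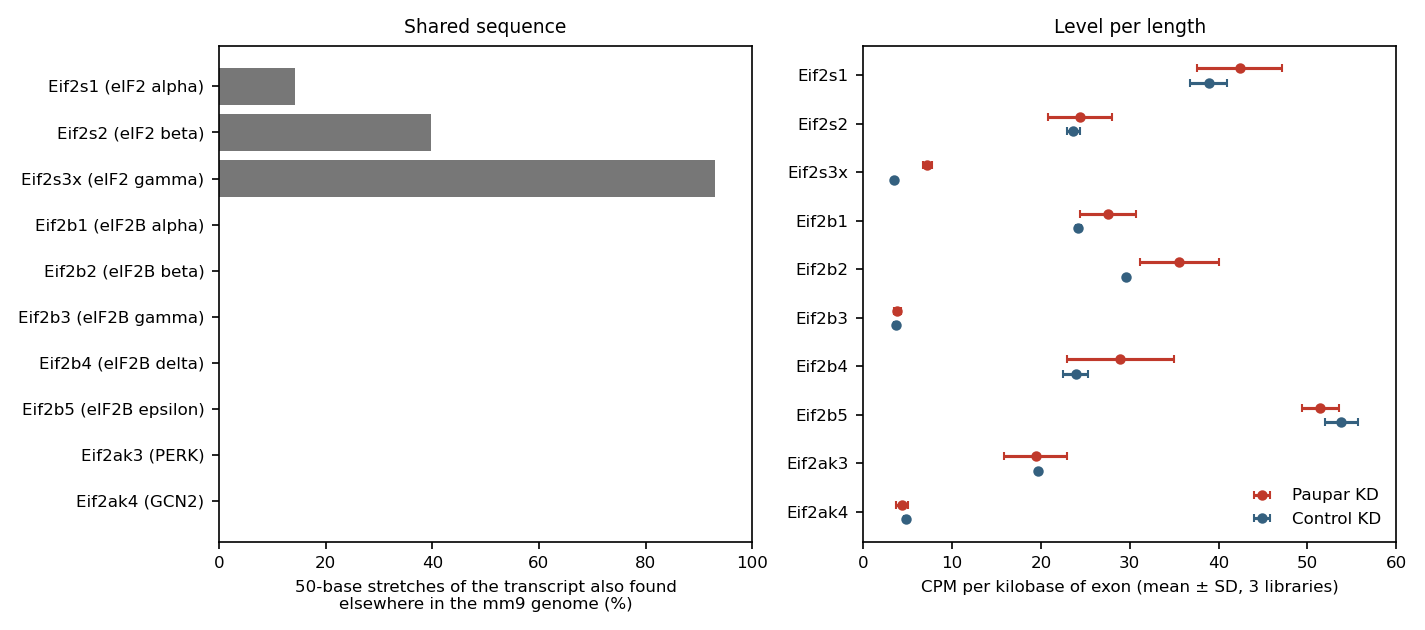
Left, share of 50-base stretches of each member's longest coding transcript that occur elsewhere in mm9 (%, horizontal axis). Right, CPM per kilobase of exon by group (points, mean; bars, SD over 3 libraries; Paupar KD in red above Control KD in blue). Eif2s3x has the highest share, 93.1%, and the lowest Control KD level, 3.51 CPM per kilobase.

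Eif2s3x had 497, 526 and 642 reads in Paupar KD replicates 1 to 3 and 297, 322 and 379 in Control KD replicates 1 to 3. Scaled, these were 29.3, 25.7 and 27.5 CPM in Paupar KD and 13.2, 13.7 and 13.2 CPM in Control KD. The groups lay far apart, and within each group the libraries were close, at 27.5 ± 1.79 CPM in Paupar KD and 13.4 ± 0.302 CPM in Control KD (SD, n = 3 each). The fitted fold was 2.06, a log2 fold change of 1.04 ± 0.10 SE. Against the Control KD mean, the log2 differences of Paupar KD replicates 1 to 3 were 1.13, 0.94 and 1.04. Eif2s3x was chosen for its rise in these libraries. That choice favours separate groups and close replicates, so neither carries a test. Leaving out Paupar KD replicate 1 gave a log2 fold change of 0.99.

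Eif2s1 (mm9, as for all positions here, chr12:79962806-79987997), which encodes the alpha subunit, was at 144.9, 160.2 and 128 CPM in Paupar KD and at 130.5, 140.2 and 126 CPM in Control KD. The ranges overlapped: Paupar KD replicate 3 was below 2 of the 3 controls. The log2 fold change was 0.12 (95% interval -0.11 to 0.36; edgeR quasi-likelihood adjusted p = 0.545). Eif2s2 (chr2:154697146-154718671), which encodes the beta subunit, was at 137, 182 and 175 CPM in Paupar KD and at 156, 165 and 158 CPM in Control KD. Paupar KD replicate 1 was below all 3 controls and replicates 2 and 3 above them. Its log2 fold change was 0.04 (95% interval -0.22 to 0.31; edgeR adjusted p = 0.867). Both intervals end well below the value of Eif2s3x, but the difference between the subunits was not tested, since Eif2s3x was chosen for its size.

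Per kilobase of exon, Eif2s3x was the lowest of the 10 genes in Control KD, at 7.22 ± 0.47 CPM per kilobase in Paupar KD and 3.51 ± 0.0793 in Control KD. Eif2s1 averaged 42.4 ± 4.77 CPM per kilobase in Paupar KD and 38.9 ± 2.11 in Control KD, and Eif2s2 24.4 ± 3.59 and 23.6 ± 0.722 in the same order of groups. With the longest transcript as the length, Eif2s2 was at 40.1 CPM per kilobase in Paupar KD and 38.9 in Control KD, and Eif2s3x at 7.55 and 3.67, still the lowest in Control KD. Set against Eif2s1 within each library, the Eif2s3x level per kilobase was 18.1%, 14.3% and 19.3% in Paupar KD replicates 1 to 3 and 9.01%, 8.73% and 9.36% in Control KD replicates 1 to 3. By this measure the gamma subunit message was far below the alpha message in all 6 libraries. In Control KD it did not differ beyond the spread from Eif2b3, the next gene up, at 3.64 ± 0.191 CPM per kilobase. This held only with the union of exons as the length. With the longest transcript, Eif2b3 was at 6.35 CPM per kilobase in Control KD, against 3.67 for Eif2s3x. In Paupar KD Eif2s3x was the 8th of 10 with either length. The part of the shared sequence in this low level was not tested.

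None of the 9 members beside Eif2s3x passed the test in edgeR, an adjusted p under 0.05 with the Benjamini-Hochberg method over all genes tested. Of the 13039 genes tested, 6 passed (0.046%), 5 of them higher (0.0383%) and 1 lower (0.00767%) in Paupar KD. DESeq2 also called 0 of the 9, against 3.97% of the genes to which it gave an adjusted p. At an unadjusted p under 0.05, edgeR gave 1 of the 9, Eif2b2, which was higher; among all genes 17.7% reached that level, 9.63% higher and 8.11% lower. The groups did not overlap for 2 of the 9, both higher in Paupar KD, against 27.1% of all genes (13.7% higher and 13.3% lower). The median log2 fold change of the 9 was 0.08, with 6 positive and 3 negative values from -0.15 to 0.27, and that of all genes tested was 0.01. The shares of the 9 thus lay near those of all genes.

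**Figure D2:**
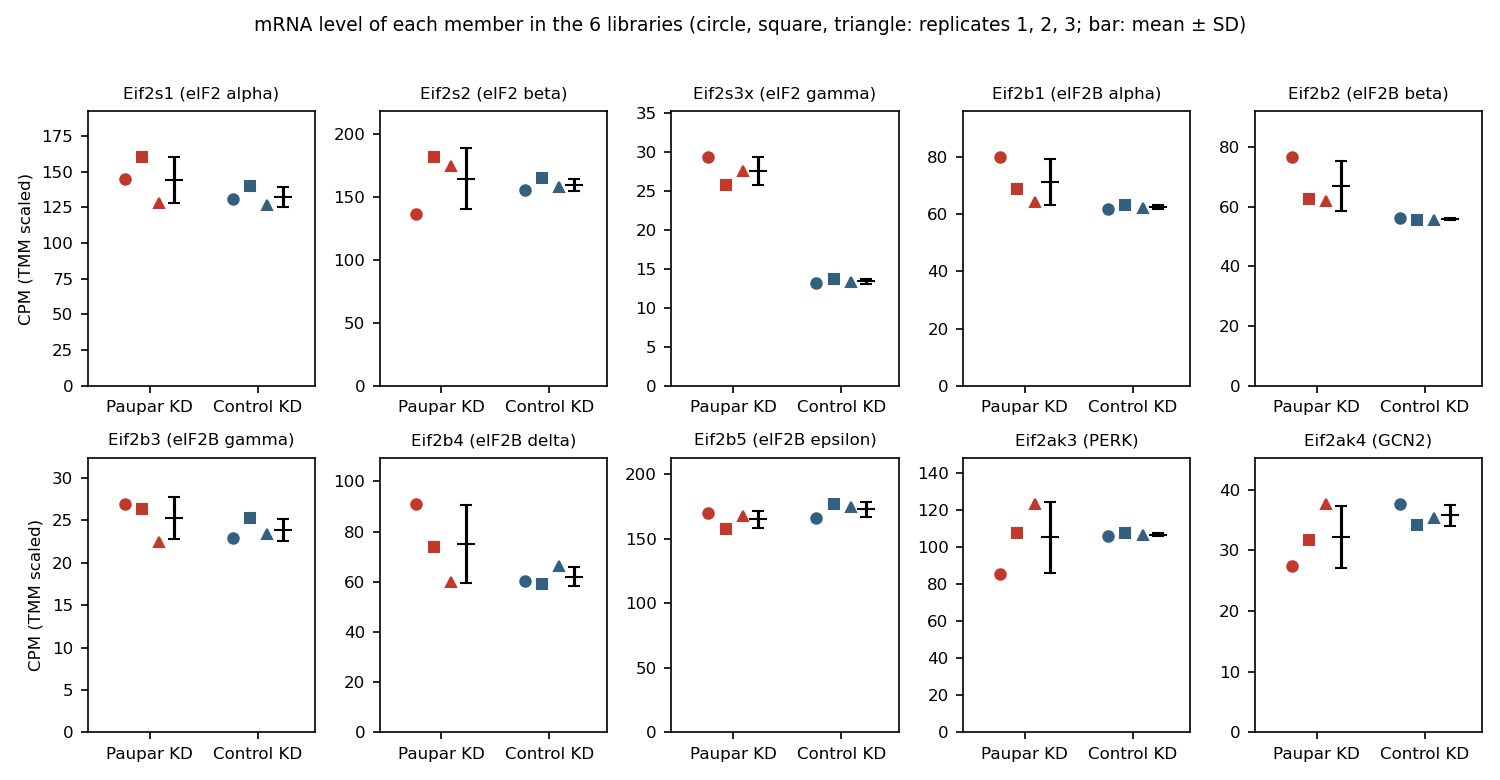
CPM of each of the 10 members (vertical axes, each from 0) in the 3 Paupar KD and the 3 Control KD libraries; red marks Paupar KD and blue Control KD, symbols mark replicates 1 to 3 and black bars the mean ± SD. Among these 10 genes, Eif2s3x, Eif2b1 and Eif2b2 have groups that do not overlap.

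eIF2B is built from a regulatory part (the alpha, beta and delta subunits, encoded by Eif2b1, Eif2b2 and Eif2b4), which senses phosphorylated eIF2, and a catalytic part (gamma and epsilon, encoded by Eif2b3 and Eif2b5). In the regulatory part, Eif2b2 (chr12:86560431-86567578) was at 76.7, 62.5 and 62.05 CPM in Paupar KD and at 56.1, 55.6 and 55.8 CPM in Control KD. Its groups did not overlap, and Paupar KD replicate 1 was highest. The log2 fold change was 0.26 (95% interval 0.03 to 0.50; edgeR unadjusted p = 0.034, adjusted p = 0.254). Eif2b1 (chr5:125020222-125029140) was at 79.9, 68.9 and 64.3 CPM in Paupar KD and at 61.9, 63.2 and 62.0 CPM in Control KD. All 3 Paupar KD libraries were above the controls, replicate 3 by little, and the log2 fold change was 0.19 (95% interval -0.04 to 0.42; edgeR adjusted p = 0.352). Eif2b4 (chr5:31489931-31495803) was at 91.2, 73.9 and 59.99 CPM in Paupar KD and at 60.4, 59.3 and 66.3 CPM in Control KD. Replicate 3 fell within the control range, and the log2 fold change was 0.27 (95% interval -0.07 to 0.61; edgeR adjusted p = 0.357). Eif2b4 shares 204 of its 2594 exon bases with Snx17 on the opposite strand; without a stated strand setting, reads from that part cannot be told apart. Snx17 averaged 173 ± 5.50 CPM in Paupar KD and 168 ± 2.54 CPM in Control KD.

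In the catalytic part, Eif2b5 (chr16:20498890-20510028), whose product holds the exchange activity, was at 170.02, 158 and 168 CPM in Paupar KD and at 166, 177 and 175 CPM in Control KD. Paupar KD replicate 2 was below all controls and the others were within their range. The log2 fold change was -0.06 (95% interval -0.25 to 0.12; edgeR adjusted p = 0.698). Eif2b3 (chr4:116692007-116759911) was at 26.95, 26.3 and 22.4 CPM in Paupar KD and at 22.9, 25.3 and 23.4 CPM in Control KD, with overlapping groups and a log2 fold change of 0.08 (95% interval -0.17 to 0.33; edgeR adjusted p = 0.719).

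The 5 subunit genes of eIF2B differed widely in level. Per kilobase of exon, Eif2b5 was highest of the 10 members, at 51.5 ± 2.06 CPM per kilobase in Paupar KD and 53.8 ± 1.85 in Control KD. Eif2b2 followed among the subunits of eIF2B, at 35.6 ± 4.43 in Paupar KD and 29.6 ± 0.149 in Control KD. Eif2b1 was at 27.6 ± 3.12 and Eif2b4 at 28.9 ± 6.02 CPM per kilobase in Paupar KD, and they were at 24.2 ± 0.283 and 23.9 ± 1.44 in Control KD, so this pair did not differ beyond its spread in either group. Eif2b3 was lowest, at 3.85 ± 0.372 and 3.64 ± 0.191 CPM per kilobase of its 6553 annotated exon bases in Paupar KD and Control KD. With the longest transcript (3754 bases) as the length, Eif2b3 was at 6.72 and 6.35 CPM per kilobase in Paupar KD and Control KD, still below the other 4.

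Eif2ak3 (chr6:70794509-70855239), the gene of PERK, was at 85.2, 107 and 123 CPM in Paupar KD and at 106, 107 and 107 CPM in Control KD. The controls were almost equal, and Paupar KD replicates 1 and 3 lay on opposite sides of them. The log2 fold change was -0.02 (95% interval -0.32 to 0.28; edgeR adjusted p = 0.96). Without Paupar KD replicate 1 it was 0.11, and the adjusted p was 0.389 to 0.983 over the alternatives. Eif2ak4 (chr2:118214353-118300970), the gene of GCN2, was at 27.4, 31.7 and 37.6 CPM in Paupar KD and at 37.7, 34.2 and 35.4 CPM in Control KD. Again replicate 1 was lowest and replicate 3 within the control range, and the log2 fold change was -0.15 (95% interval -0.43 to 0.14; edgeR adjusted p = 0.552). Eif2ak4 ends 615 bases from the end of Srp14, a gene of the signal recognition particle that faces it on the other strand of chromosome 2. Srp14 averaged 128 ± 22.5 CPM in Paupar KD and 57.7 ± 3.08 CPM in Control KD, 2.22-fold, and was among the 6 genes called (edgeR adjusted p = 0.0465). The part of this neighbour in the Eif2ak4 counts was not tested.

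**Figure D3:**
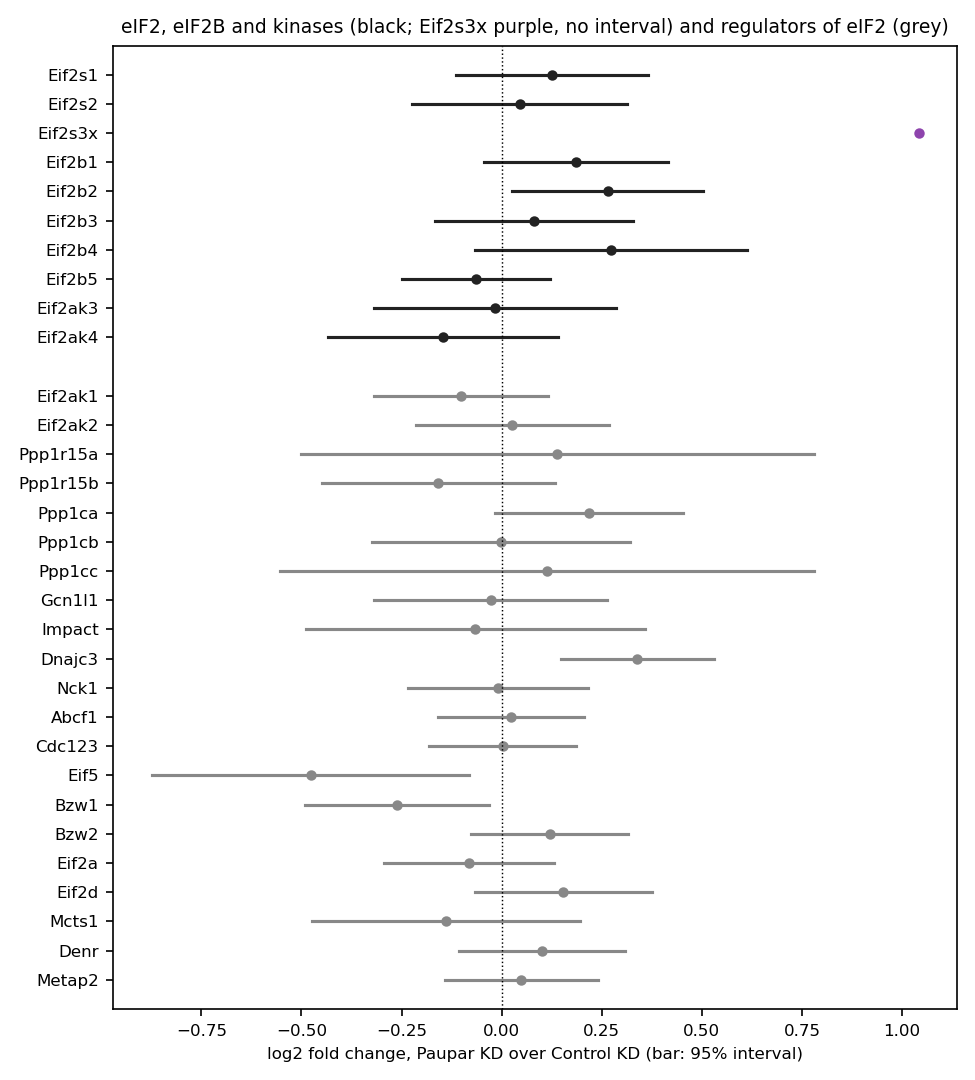
Log2 fold change (Paupar KD over Control KD, horizontal axis) of the 10 members and of 21 regulators of eIF2, with 95% intervals from the edgeR fit; members are black and regulators grey; Eif2s3x, which chose the members, is drawn without one. Of the other 9 members only Eif2b2 has an interval that leaves out 0. The intervals are not adjusted, and 17.7% of all genes had an unadjusted p under 0.05 with edgeR.

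Paupar KD replicate 1 was the library farthest from the Control KD mean for 7 of the 9 members beside Eif2s3x, replicate 2 for 2 and replicate 3 for 0. The like count over all genes was not made, so these counts are not read as a trait of the members. Replicate 1 also stood farthest from the other libraries by correlation over genes. In replicate 1 the median log2 differences from the Control KD mean were 0.36 for the 5 subunits of eIF2B, with Eif2b5 at -0.02 and the other 4 above 0, and -0.35 for the kinases. In replicate 3 they were -0.04 and 0.14. All genes tested had a median of 0.00 in replicate 1 and 0.01 in replicate 3. Leaving out any 1 of the 6 libraries gave 0 calls among the 9 in edgeR. Among all genes it gave calls for 1.91% without Paupar KD replicate 1, for 10.3% without Paupar KD replicate 3, and for 0% without Paupar KD replicate 2 or any 1 control.

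Among 21 further genes that act on eIF2, none passed over all genes with edgeR; 1 was higher and 2 lower at an unadjusted p under 0.05, against 9.63% higher and 8.11% lower among all genes, and DESeq2 called 1, against 3.97% of all genes. The groups did not overlap for 3 that were higher and 2 that were lower in Paupar KD, 23.8% of the 21 against 27.1% of all genes. These counts are near the background. The median log2 fold change was 0.00. Dnajc3, which encodes a chaperone partner described as an inhibitor of PERK and PKR, had the smallest p. It was at 248, 264 and 237 CPM in Paupar KD and at 191, 200.5 and 201 CPM in Control KD. All Paupar KD libraries were above all controls, by a log2 fold change of 0.34 (95% interval 0.15 to 0.53; edgeR adjusted p = 0.144). It was the gene that DESeq2 called. Eif5, which encodes the protein that makes eIF2 hydrolyse its GTP, was at 416, 544 and 708 CPM in Paupar KD and at 761, 774 and 787 CPM in Control KD. The groups did not overlap, with replicate 1 lowest, and the log2 fold change was -0.48 (95% interval -0.87 to -0.08; edgeR adjusted p = 0.235). Without Paupar KD replicate 3 both Dnajc3 and Eif5 passed, at log2 fold changes of 0.38 and -0.69, in a fit where 10.3% of all genes passed. Bzw1, whose product resembles the end of eIF5 and competes with it for eIF2, averaged 473 ± 50.1 CPM in Paupar KD and 567 ± 19.2 CPM in Control KD, also without overlap (edgeR adjusted p = 0.251).

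The other eIF2 kinases did not pass. Eif2ak1, the gene of the heme-regulated kinase HRI, averaged 82.2 ± 8.14 CPM in Paupar KD and 88.3 ± 0.742 CPM in Control KD (edgeR adjusted p = 0.591). Eif2ak2, the gene of the RNA-activated kinase PKR, averaged 36.9 ± 4.13 and 36.2 ± 1.2 CPM in Paupar KD and Control KD (edgeR adjusted p = 0.912). Of the PP1 subunits that direct the phosphatase to eIF2, the stress-induced Ppp1r15a was at 31.6, 48.2 and 78.9 CPM in Paupar KD and at 47.97, 51.2 and 45.3 CPM in Control KD, so the Paupar KD libraries spread to both sides of the controls (edgeR adjusted p = 0.820). The constitutive Ppp1r15b averaged 286 ± 47.8 CPM in Paupar KD and 319 ± 10.9 CPM in Control KD (edgeR adjusted p = 0.526). The GCN2 co-activator Gcn1l1, the GCN2 inhibitor Impact and the eIF2 assembly factor Cdc123 had log2 fold changes of -0.03, -0.07 and 0.00 (edgeR adjusted p of 0.926, 0.875 and 0.991).

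Of 35 other initiation factors, 34 were tested and none passed over all genes with edgeR or DESeq2, with 2 higher and 4 lower at an unadjusted p under 0.05, against 9.63% higher and 8.11% lower among all genes. The groups did not overlap for 8 that were higher and 7 that were lower in Paupar KD, 44.1% of the 34 against 27.1% of all genes. Their log2 fold changes were evenly split: 17 were positive and 17 negative, with a median of 0.01. Eif3j had 0 counts in every library, and 82.7% of the 50-base stretches of its transcript also occur elsewhere. The part of the shared sequence in these 0 counts was not tested. The smallest p belonged to Eif4e2, a cap-binding protein gene, which was at 58.6, 46.4 and 68.7 CPM in Paupar KD and at 82.7, 78.5 and 78.1 CPM in Control KD (log2 fold change -0.46; edgeR adjusted p = 0.184). Eif4g2, which encodes a scaffold relative of eIF4G that does not bind the cap-binding protein eIF4E, averaged 1250 ± 237 CPM in Paupar KD and 1667 ± 86.0 CPM in Control KD (edgeR adjusted p = 0.216). Eif5a2, an isoform gene of eIF5A, averaged 46.7 ± 4.59 and 57.4 ± 2.47 CPM in Paupar KD and Control KD (edgeR adjusted p = 0.216). Without Paupar KD replicate 3, Eif4e2 and Eif4g2 passed as lower and Eif4h and Eif5a as higher, where 10.3% of all genes passed. Of 10 tested elongation and release factors, none passed with edgeR or DESeq2, against 0.046% and 3.97% of all genes. None had an unadjusted p under 0.05 with edgeR, against 17.7% of all genes. The groups did not overlap for 10% of them, against 27.1% of all genes. Gspt1, a release factor gene, had the smallest p, at 268 ± 25.05 CPM in Paupar KD and 297 ± 3.29 CPM in Control KD (edgeR adjusted p = 0.422). Eef2k, the kinase of elongation factor eEF2, and Eef1e1 came next (edgeR adjusted p = 0.479 and 0.622).

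Messages that rise when eIF2 is phosphorylated were described by 22 tested genes of 23 listed. None passed with edgeR, against 0.046% of all genes, or with DESeq2, against 3.97% of the genes to which it gave an adjusted p. None had an unadjusted p under 0.05 with edgeR, against 17.7% of all genes. The groups did not overlap for 9.09% of the 22, against 27.1% of all genes. Of their log2 fold changes, 7 were positive and 15 negative, with a median of -0.06, against 0.01 for all genes tested. Atf4, the transcription factor gene at the head of this response, was at 411, 439 and 493 CPM in Paupar KD and at 427, 419 and 390.3 CPM in Control KD (log2 fold change 0.12; edgeR adjusted p = 0.529). Ddit3, which encodes CHOP, was at 40.5, 70.2 and 96.5 CPM in Paupar KD and at 74.7, 79.8 and 63.0 CPM in Control KD. Trib3, a CHOP and ATF4 target, was at 82.5, 137 and 248 CPM in Paupar KD and at 169.8, 174 and 140.2 CPM in Control KD. For Ddit3 and Trib3, replicate 1 was below all controls and replicate 3 above them (edgeR adjusted p = 0.915 and 0.953). The medians of the list were -0.41, -0.05 and 0.23 on the log2 scale in Paupar KD replicates 1 to 3. The smallest p belonged to Fgf21, the gene of a metabolic hormone, which averaged 3.62 ± 0.591 CPM in Paupar KD and 2.75 ± 0.208 CPM in Control KD (edgeR adjusted p = 0.308). Ddit4, which encodes an inhibitor of mTORC1, averaged 106 ± 53.0 CPM in Paupar KD and 167 ± 23.4 CPM in Control KD (edgeR adjusted p = 0.309). Vldlr, a lipoprotein receptor gene, averaged 246 ± 111 CPM in Paupar KD and 348 ± 7.27 CPM in Control KD (edgeR adjusted p = 0.374). In Paupar KD replicate 1, Ddit4 and Vldlr were at 65.1 and 144 CPM, and in replicate 3 at 166 and 365 CPM. Without Paupar KD replicate 3, 3 of the 22 passed as lower, Ddit4, Sesn2 and Vldlr, in a fit where 10.3% of all genes passed in either direction, 745 of them lower.

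**Figure D4:**
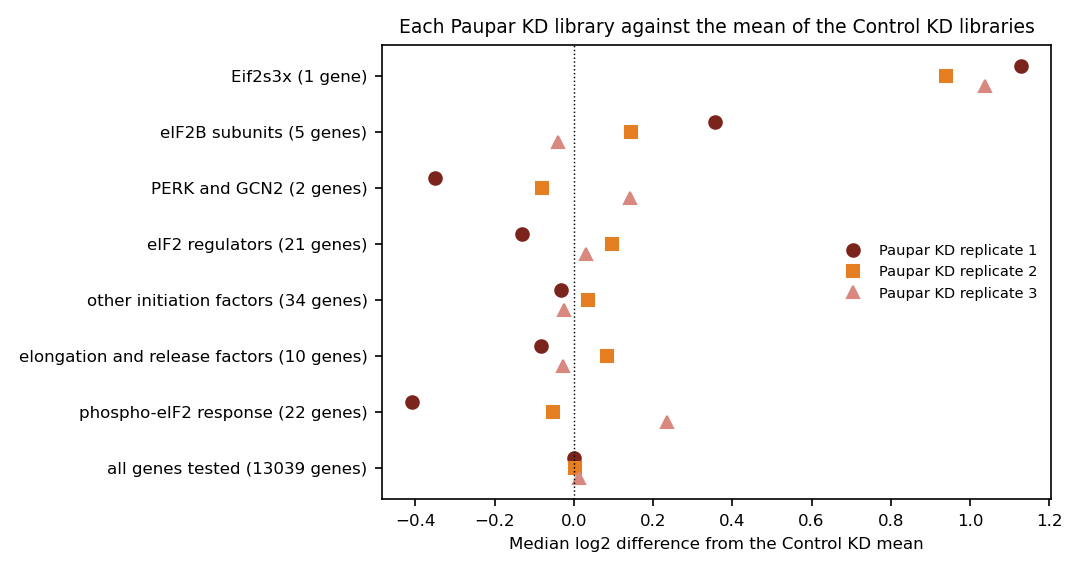
Median log2 difference of each Paupar KD library from the Control KD mean (horizontal axis) for Eif2s3x and for lists of genes; symbols mark Paupar KD replicates. For Eif2s3x the 3 replicates lie at 0.94 to 1.13. It was chosen for its rise in these libraries, so that place carries no test. The replicates lie on both sides of 0 for every list except all genes tested. Replicate 1 is highest for the eIF2B subunits and lowest for the other lists.

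Eif2s3x is one of the few X-linked genes with a Y-linked partner. Counts for 10 Y-linked symbols, Eif2s3y among them, came to 0 in all 6 libraries, which allows at most 0.105 to 0.177 CPM per gene and library (3 counts of each total; counting error only). Of the other X-linked genes of such pairs, 7 were tested. None passed or had an unadjusted p under 0.05 with edgeR, against 0.046% and 17.7% of all genes. Their log2 fold changes were -0.23 (Zfx) to 0.13 (Ddx3x). Kdm6a, Zfx and Ddx3x had the smallest p among these 7, with edgeR adjusted p of 0.498, 0.499 and 0.538.

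Within 500 kb of Eif2s3x the annotation holds 27 other genes, of which 9 were in the tables and 8 tested. None of the 8 passed with edgeR, where 0.046% of all genes tested passed. At an unadjusted p under 0.05 there was 1, Gm14827, against 17.7% of all genes. Gm14827 was at 0.585 ± 0.304 CPM in Paupar KD and 1.08 ± 0.164 CPM in Control KD. The genes on either side, Zfx and Klhl15, averaged 75.4 ± 19.3 and 18.4 ± 2.26 CPM in Paupar KD and 88.6 ± 3.02 and 18.0 ± 0.718 CPM in Control KD (edgeR adjusted p = 0.499 and 0.928). Maged1, the most abundant neighbour, averaged 1494 ± 95.2 CPM in Paupar KD and 1655 ± 11.3 CPM in Control KD (edgeR adjusted p = 0.389). Pcyt1b, Pdk3, Apoo, Gm14827 and Gspt2 had log2 fold changes of -0.88 to 0.05 and edgeR adjusted p of 0.276 to 0.964.

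The profile of Eif2s3x over the 6 libraries was most like those of Cdc42se2, Cyb561, Ryk, Rbm18 and Srp14 among 10681 genes with a mean of at least 5 CPM. The measure was the root mean square difference of log2 CPM centred on each gene's own mean, which was 0.0935 for Cdc42se2 and 0.143 for Srp14. Cyb561, which encodes a cytochrome of secretory granules, averaged 146 ± 23.3 CPM in Paupar KD and 72.0 ± 4.71 CPM in Control KD. Genes near a profile chosen for its rise also differ between the groups, so these values carry no test. For all 5 of these genes, 0% of the 50-base stretches of the transcript occur elsewhere in mm9, against 93.1% for Eif2s3x.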

How the data were processed

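The authors deposited a table of raw read counts per gene symbol for each library, without normalization. The submitters' processing notes name build mm9 and, as tools, CASAVA 1.8.2, DESeq2, HISAT2 and HTSeq. No source used here gives their roles, the annotation or the strand setting. Per the labels' protocols, libraries were made from total RNA with a TruSeq kit. The labels do not say whether replicates came from separate cultures, and p-values therefore measure only the variation among these libraries, which may be technical.

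Counts were tested with edgeR 4.0.16 in R 4.3.3: filterByExpr (minimum count 10; 13039 genes kept), TMM factors, robust quasi-likelihood fit, Benjamini-Hochberg adjustment over all genes, threshold 0.05. Standard errors were taken as the absolute log2 fold change over the root of F. Alternatives were other scaling factors and filters, DESeq2 1.42.0, limma-voom (limma 3.58.1), no robust estimation, a replicate block and leaving out each library. Every pair of libraries differed by more than counting noise (chi-square per gene of at least 3.46).

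The longest coding transcript of each gene (GENCODE M1 on NCBIM37, which is mm9) was searched against that genome with megablast in BLAST+ 2.17.0. Copies of at least 200 bases and 90% identity outside the gene are reported, and stretches of 50, 75 and 100 bases with an identical match elsewhere were counted. Exon length is the union of annotated exons.

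The members and gene lists were chosen with earlier results of these data known. Named genes are the members, Pax6, the genes with the smallest p or past the threshold in each list, preset regulators, neighbours within 500 kb and the 5 nearest profiles; Srp14, Snx17, Eif3j, Gcg, Ttr, Ins2, Slc30a8, Ppp1cc and genes called only in an alternative were named after their values were seen. Some alpha cell markers are not reported here.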

Additional observations from a re-analysis of the deposited data

How the results depend on the processing

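Among the 9 members beside Eif2s3x, none was called in any of 15 alternatives, and the log2 fold change of Eif2s3x was 0.99 to 1.08 in all 15. Eif2s2 and Eif2ak3, which were never called, changed direction. Eif2s2 was at -0.040 in the fit lacking Paupar KD replicate 2 and at -0.0014 in that lacking Paupar KD replicate 3, within a leave-one-out range of -0.040 to 0.15. Eif2ak3 was at 0.0095 under upper-quartile scaling, and its leave-one-out range was -0.15 to 0.11, the highest in the fit lacking Paupar KD replicate 1. Of all genes, 5 were called higher and 1 lower in the fit reported. Upper-quartile scaling called 3 higher and 0 lower, keeping genes of low count 36 higher and 24 lower, requiring a mean of 1 CPM 2 higher and 0 lower, and DESeq2 275 higher and 233 lower; the cause was not tested. Each library was also dropped in turn, which called 0 to 611 genes higher and 0 to 745 lower. Both were 0 when a control or Paupar KD replicate 2 was dropped. Dropping Paupar KD replicate 1 called 123 higher and 128 lower, and dropping Paupar KD replicate 3 called 611 higher and 745 lower. In the lists, DESeq2 called 1 regulator of eIF2 higher. Dropping single libraries called 0 to 1 regulators in each direction, 0 to 2 other initiation factors in each direction and 0 to 3 phospho-eIF2 response genes lower. With a replicate block edgeR called 1 gene higher and 0 lower. Deviations of same-numbered libraries from their group means correlated at 0.07, -0.01 and 0.01. Such values cannot settle whether same-numbered libraries shared a culture or batch, and the labels do not say. With the longest transcript as length, 15 of 20 levels per kilobase moved by more than 1 SD, and Eif2s3x stayed lowest in Control KD. Each member had at least 297 counts in every library.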

Other observations

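Ppp1cc, the gene of 1 of the PP1 catalytic subunits, had 92.8% of its 50-base stretches elsewhere in mm9. It was at 41.6, 22.1 and 22.3 CPM in Paupar KD replicates 1 to 3 and at 35.8, 21.6 and 21.9 CPM in Control KD replicates 1 to 3. Replicate 1 was thus the highest library in both groups, and the groups overlapped (log2 fold change 0.11; edgeR adjusted p = 0.865).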
